A study of Mus musculus with 6 samples.

Results

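Retinoic acid acts through a small set of enzymes and receptors, and 7 of their genes were followed here, all of them among the 12008 genes of the deposited table that passed a filter on low values: the breakdown enzyme gene Cyp26b1, the synthesis enzyme gene Aldh1a1, the retinoic acid receptor genes Rara, Rarb and Rarg, and the retinoid X receptor genes Rxra and Rxrb. They were taken by name, but chosen on the normalized CPM of these same libraries, whose genotype difference was already known, so their differences between genotypes are given as a description, without a test. Bone marrow was the source of the sorted long-term stem cells (LT-HSC), which were enriched as Lin- and gated as LSK CD34-CD150+CD48-Flk2-. Of 6 libraries, 3 came from Itpkb-/- mice, which carry the ENU-induced Ms T-less allele, and 3 from wild-type litter mate controls (WT), all on the C57BL/6 background. Each library was made from a pool of 4 age-matched mice of unstated age and from 10000 or more sorted cells. The labels name no Cre or tissue-restricted driver. Itpkb encodes inositol-trisphosphate 3-kinase B.

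Retinol is oxidised to retinal and then, by retinaldehyde dehydrogenases such as Aldh1a1, to retinoic acid. Cytochromes of the Cyp26 family hydroxylate retinoic acid and so clear it from the cell. Retinoic acid binds receptors of the RAR family, which sit on DNA as dimers with an RXR partner, hold corepressors when empty and recruit coactivators when filled. In mouse bone marrow, retinoic acid signalling is known for its link to the dormancy of stem cells, Cyp26b1 is known as a gene of dormant LT-HSC, and loss of Rarg is known to reduce stem cell self-renewal.

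The DNA element of this pathway is a direct repeat of a short half-site, and Rarb carries its textbook example. The RefSeq windows of build GRCm38.p6, from 250 bases before to 50 bases after each annotated start, were searched on both strands for any pair of half-sites (AGGTCA or its variants, which are GGGTCA or else AGTTCA or else GGTTCA) in direct repeat with 5, 2 or 1 bases between them. All 7 genes had at least 1 window, 14 in all, and 1 gene, Rarb, held a match, with 5 bases between the half-sites. Of all 32851 windows 0.0974% held a repeat with this spacing and 0.588% held any of the 3 spacings. Among the other retinoid pathway genes listed below, 70 of 94 had a window and 2 held a match, Cyp26a1 with 5 bases between and Bco1 with 1. The first sequence below is the Rarb element (chr14:16575507-16575535, minus strand), shown because Rarb was one of the genes that differed most, with the repeat of 17 bases and its spacer in capitals. The second is the Cyp26a1 element (chr19:37697776-37697792, read on the minus strand) of the relative of Cyp26b1 that these cells hardly expressed, with its half-sites in capitals. The third is the stretch of the Cyp26b1 window that lies before the first annotated exon (chr6:84593909-84594060, minus strand), shown because this gene differed most; it held none of these repeats. A match is a description of letters and not of binding.
Rarb element: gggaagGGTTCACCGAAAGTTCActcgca
Cyp26a1 element: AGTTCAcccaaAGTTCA
Cyp26b1 upstream stretch: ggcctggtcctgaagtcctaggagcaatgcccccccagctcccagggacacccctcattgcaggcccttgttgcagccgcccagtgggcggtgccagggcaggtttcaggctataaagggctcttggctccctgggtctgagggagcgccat

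The repeat in Rarb lay 53 to 37 bases before the RefSeq start. With AGGTCA alone in both half-sites, neither Rarb nor any other of the 7 genes had a match, and 0.0578% of all windows did.

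The libraries held 4024203 to 7470329 reads assigned to genes, recovered from the deposited values as described under the processing. Values are counts scaled to library size (normalized CPM), on which 1 read was worth 0.131 to 0.249 and the floor of 3 reads 0.393 to 0.746. Of 10 LT-HSC marker genes 5 were called lower in Itpkb-/- cells and none higher (limma, adjusted p up to 0.15). Their sums were 1649 to 2199 normalized CPM against 2757 to 3364 in WT. Of all tested genes 3.24% were called lower and 2.27% higher. Of 6 multipotent progenitor markers 3 were called higher, with sums of 518.3 to 796.1 against 255.6 to 345.7. Granulocyte markers stood apart in Itpkb-/- library 2, at a sum of 18208 where the other libraries lay between 688 and 6160, and of 10 none passed the test (limma; 1 had an unadjusted p under 0.05), 0 by edgeR and 2 by DESeq2. Of 7 endothelial markers, several of which stem cells also express, 2 were called lower, Tie1 and Emcn, with sums of 238.5 to 444.2 against 347.3 to 395.4. Cdh5, which defines endothelium, was at most at 0.524 normalized CPM. Of 8 stroma and bone markers 5 were under 3 reads in every library and Lepr was at 0, with sums of 7.47 to 12.9 against 10.8 to 13.3. Itpkb itself was at 10.2, 13.99 and 18.2 in Itpkb-/- and 22.1, 23.6 and 25.1 in WT libraries, and its transcript need not be lost with this allele.

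Cyp26b1 (chromosome 6, 84571414 to 84593908, minus strand, mm10) encodes the cytochrome that hydroxylates retinoic acid. Its level in normalized CPM was 31.1, 12.6 and 16.6 for WT libraries 1, 2 and 3, and 2.61, 1.24 and 2.88 for Itpkb-/- libraries 1, 2 and 3, an order of libraries kept below. Every Itpkb-/- library lay below every WT library, and WT library 1 stood well above the other two. The values rest on 12, 8 and 22 reads in the Itpkb-/- and 125, 84 and 89 in the WT libraries. Mean levels came to 2.25 ± 0.880 and 20.1 ± 9.75 (SD, n = 3 each), an 8.93-fold lower level in Itpkb-/- cells. On the scale of log2(value + 1), which understates the change of low genes, the difference was -2.64 (SE 0.37), the fifth lowest of the 12008 genes that reached 1 normalized CPM in 3 libraries or more. Without WT library 1 it was -2.29. In bulk RNA of sorted cells, fewer cells with Cyp26b1 transcripts and less Cyp26b1 RNA per cell cannot be told apart.

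**Figure D1:**
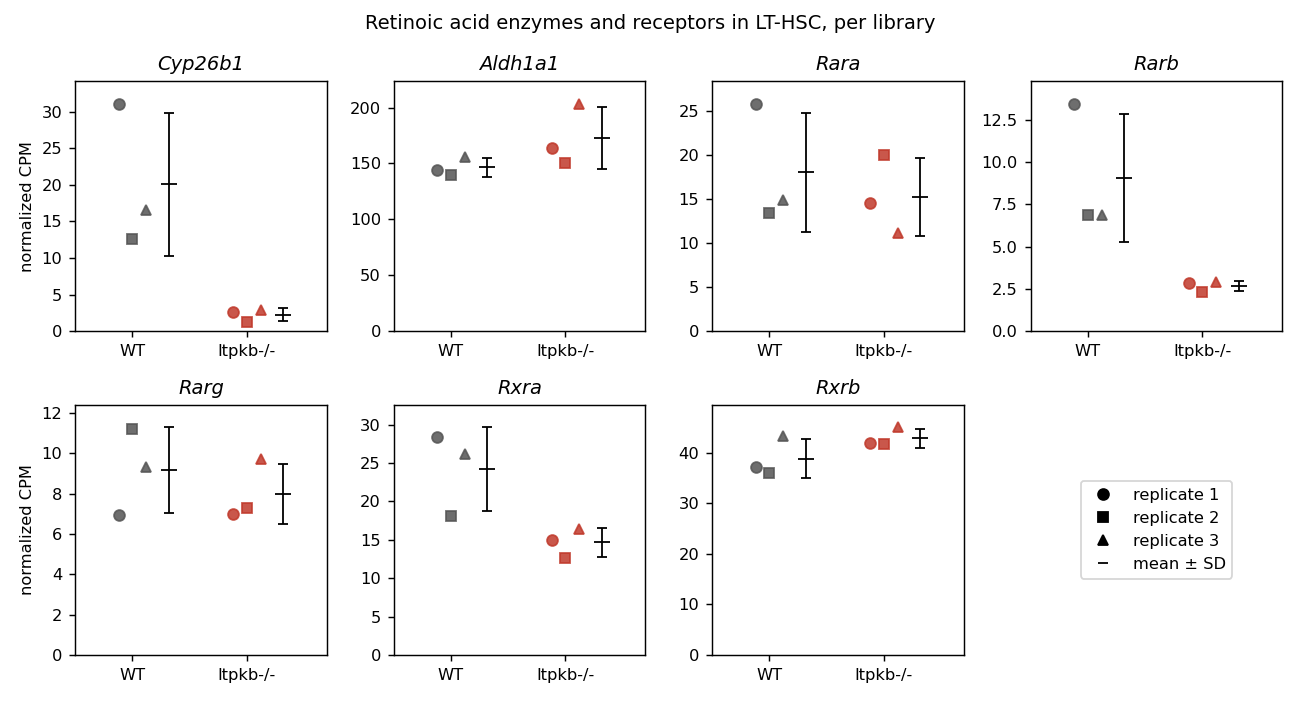
Normalized CPM of Cyp26b1, Aldh1a1 and the 5 receptor genes in each library (vertical axes start at 0), with WT in grey, Itpkb-/- in red, a symbol for each replicate number and the mean ± SD of 3 libraries beside them. Cyp26b1, Rarb and Rxra of the 3 Itpkb-/- libraries lie below all 3 WT libraries, and the genotypes overlap in the other 4 genes.

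The sum of the LT-HSC markers moved in the same direction as Cyp26b1 but less far. It was 1.56-fold lower in Itpkb-/- cells, against 8.93-fold for Cyp26b1. This sum is weighted to abundant genes such as Kit (mean 714 normalized CPM in Itpkb-/- and 866 in WT). Single markers ran in log2 difference from -1.83 for Fgd5 (15.3 and 56.4) to 0.02 for Slamf1, with Procr at -1.48. As a percent of that sum, Cyp26b1 was 0.119, 0.0754 and 0.134 in Itpkb-/- libraries and 0.924, 0.455 and 0.517 in WT libraries. The genotypes did not overlap on this scale either, on which Cyp26b1 was 5.77-fold lower. The part that the lower LT-HSC and higher progenitor markers had in this difference was not tested beyond this ratio. The endothelial markers did not move together. Tie1 (mean 58.1 normalized CPM in Itpkb-/- and 101 in WT) and Emcn (13.7 and 39.3) were lower along with Cyp26b1. Pecam1 (68.2 and 46.6) was higher without overlap. The means of Kdr (6.61 and 6.73) and Vwf (165 and 185) differed little, and Cdh5 and Stab2 were near 0 in both genotypes. Of the stroma markers, Col1a2 lay between 7.34 and 12.9 in every library and Lepr was at 0. The part of such cells in the Cyp26b1 difference was not tested.

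The other two Cyp26 genes gave almost no reads: Cyp26a1 had 2 reads in 1 library and Cyp26c1 had 2 reads in another. Both were at 0 in all WT libraries. Cyp26b1 was thus the one Cyp26 gene above the floor in these cells, in every library of both genotypes. These relatives and those named with the synthesis enzymes were chosen after their values were seen.

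Aldh1a1 (chromosome 19, 20492715 to 20643465, plus strand), a retinaldehyde dehydrogenase that makes retinoic acid, was the most abundant of the 7. It was at 163.8, 150.1 and 203.4 normalized CPM among Itpkb-/- libraries, against 144.2, 139.7 and 155.8 among WT libraries. The genotypes overlapped, with means of 172.4 ± 27.7 and 146.6 ± 8.29 (SD, n = 3 each) and a log2 difference of 0.22 (SE 0.14). Between libraries of the same number the Itpkb-/- value was the higher in 3 of 3, and the replicate block did not call the gene. As a percent of the LT-HSC marker sum, which was itself lower in Itpkb-/- cells, Aldh1a1 did not overlap, at 8.67 ± 1.08 in Itpkb-/- and 4.74 ± 0.404 in WT. The other retinal dehydrogenases were low: Aldh1a2 had 3 reads in 1 WT library and none elsewhere, and Aldh1a3 had 11 reads at most. Aldh1a7, a near copy of Aldh1a1 whose reads may be hard to tell from it, was at 3.54 normalized CPM or less.

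Per kilobase of exon, the level of Aldh1a1 exceeded that of Cyp26b1 by factors of 5.03, 12.1 and 10.2 in WT libraries 1, 2 and 3. In Itpkb-/- libraries the factors were 67.9, 130.9 and 76.5. The lowest Itpkb-/- ratio was above the highest WT ratio, with means of 91.8 ± 34.2 and 9.10 ± 3.64 (SD, n = 3 each). The ratio contains Cyp26b1 and so repeats its difference, and it compares transcripts and not enzyme activities.

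Rarb (chromosome 14, 16430839 to 16819156, minus strand) encodes the receptor whose own promoter holds the element printed above. It was at 2.83, 2.33 and 2.88 normalized CPM among Itpkb-/- libraries, against 13.4, 6.87 and 6.89 among WT libraries. The genotypes did not overlap, the 3 Itpkb-/- libraries lay close together, and WT library 1 was again the highest. The means were 2.68 ± 0.305 and 9.06 ± 3.78 (SD, n = 3 each), 3.38-fold lower in Itpkb-/- cells, and the log2 difference was -1.39 (SE 0.34). Without WT library 1 it was -1.10. The values rest on 13, 15 and 22 reads in the Itpkb-/- and 54, 46 and 37 in the WT libraries. As a percent of the LT-HSC marker sum Rarb was 0.135 ± 0.00629 in Itpkb-/- and 0.288 ± 0.0981 in WT, without overlap, a 2.13-fold lower level. Of the LT-HSC markers, Fgd5 and Procr had lower log2 differences than Rarb, at -1.83 and -1.48, and the others fell less far or not at all. This order holds on log2(value + 1), which understates the change of low genes such as Rarb. By the ratio of the means, Fgd5 (15.3 normalized CPM in Itpkb-/- and 56.4 in WT) fell further than Rarb, and Procr (20.0 and 56.5) less far.

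The Rarb value may hold reads of a neighbour. In the GENCODE M21 models 1793 exonic bases of Rarb, 34.1% of its exon length, are also exonic in Top2b on the plus strand, while in the RefSeq models the 2 genes lie 51 bases apart. The library kit does not mark strand, and the sources used here name Partek for the annotation but not its gene models. Top2b was far more abundant, at 352.2 ± 29.6 normalized CPM in Itpkb-/- and 321.4 ± 35.2 in WT (SD, n = 3 each). The share of Top2b reads in the Rarb value was not tested.

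Rara (chromosome 11, 98927818 to 98974942, plus strand), the receptor known for its fusion in promyelocytic leukaemia, was at 14.6, 20.0 and 11.1 normalized CPM among Itpkb-/- libraries, against 25.9, 13.5 and 14.9 among WT libraries. The genotypes overlapped, and the log2 difference of -0.21 (SE 0.30) turned to 0.06 without WT library 1. Rarg (chromosome 15, 102234938 to 102257517, minus strand) was at 6.97, 7.30 and 9.70 in Itpkb-/- and 6.96, 11.2 and 9.31 in WT libraries. Here the lowest value of all was that of WT library 1, and the log2 difference was -0.17 (SE 0.28). For both genes the difference between the means was smaller than the SD within either genotype.

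Rxra (chromosome 2, 27676440 to 27762957, plus strand), a shared dimer partner of many nuclear receptors, was at 15.0, 12.6 and 16.4 normalized CPM among Itpkb-/- libraries, against 28.3, 18.1 and 26.2 among WT libraries. The genotypes did not overlap, although WT library 2 came close to the Itpkb-/- values. The means were 14.7 ± 1.92 and 24.2 ± 5.42 (SD, n = 3 each), 1.65-fold lower in Itpkb-/- cells, with a log2 difference of -0.67 (SE 0.24). As a percent of the LT-HSC marker sum Rxra overlapped between genotypes, at 0.737 ± 0.0459 in Itpkb-/- and 0.772 ± 0.102 in WT.

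Rxrb (chromosome 17, 34031812 to 34038399, plus strand), the second RXR gene, was at 41.8, 41.6 and 45.0 normalized CPM among Itpkb-/- libraries, against 37.1, 36.0 and 43.2 among WT libraries. The genotypes overlapped through WT library 3, and the log2 difference was 0.14 (SE 0.16). Between libraries of the same number the Itpkb-/- value was the higher in 3 of 3. As a percent of the LT-HSC marker sum, which was itself lower in Itpkb-/- cells, Rxrb did not overlap, at 2.17 ± 0.319 in Itpkb-/- and 1.25 ± 0.131 in WT. Rxrg, the third RXR gene, was at 0 in all 6 libraries.

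Levels of different genes were compared per kilobase of exon, in normalized CPM per kilobase. In WT cells Aldh1a1 was highest at 29.7 ± 1.68 (SD, n = 3), followed by Rxrb at 9.75 ± 0.975, and neither overlapped with the next gene. Rxra at 4.44 ± 0.993, Rara at 4.14 ± 1.56, Cyp26b1 at 3.75 ± 1.82, Rarg at 2.15 ± 0.499 and Rarb at 1.72 ± 0.718 followed, and each of these overlapped with its neighbour in the order. In Itpkb-/- cells the order was Aldh1a1 (34.9), Rxrb (10.8), Rara (3.50), Rxra (2.69), Rarg (1.88), Rarb (0.509) and Cyp26b1 (0.420). Cyp26b1 went from the fifth place to the seventh, and its range there overlapped with that of Rarb. Among the tested genes with a known length, Cyp26b1 was higher than 34.7% in WT and 5.62% in Itpkb-/- cells, and Aldh1a1 than 87.3% and 88.9%.

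**Figure D2:**
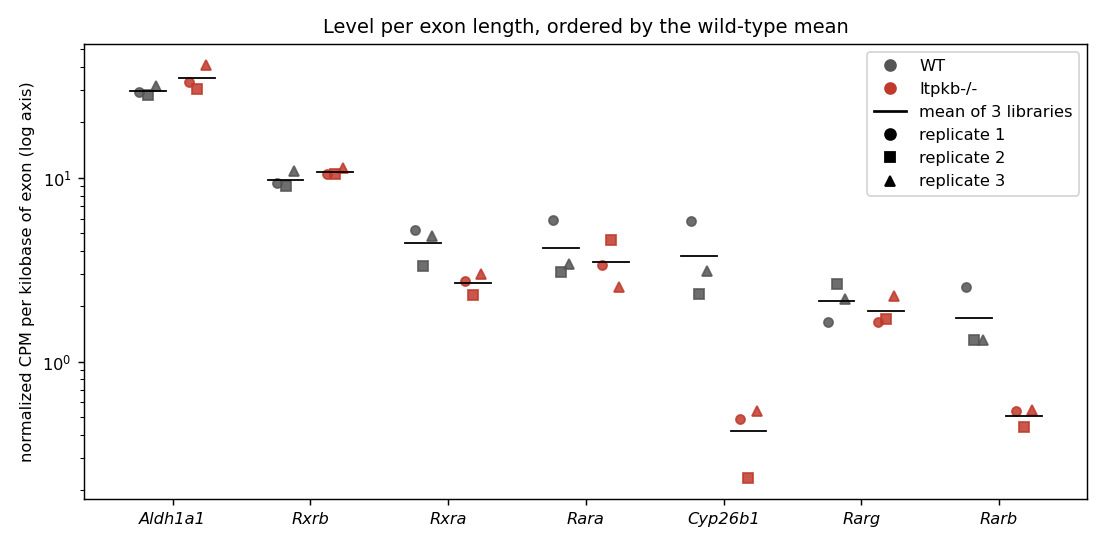
Normalized CPM per kilobase of exon on a log axis for the 7 genes, ordered by the WT mean, with WT libraries in grey, Itpkb-/- libraries in red and the mean of 3 libraries as a bar. Aldh1a1 and Rxrb lie above the other genes in both genotypes, while Cyp26b1 and Rarb have means of 0.420 and 0.509 in Itpkb-/- cells.

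The makeup of the receptor families does not depend on the scaling between libraries. Rara made up 50.6 ± 7.43% of the summed RAR level per kilobase in WT and 58.7 ± 10.4% in Itpkb-/- cells (SD, n = 3 each), and Rarg 28.4 ± 11.0% and 32.5 ± 8.81%, with overlap for both. Rarb made up 25.2, 18.6 and 18.9% in WT libraries and 9.75, 6.56 and 10.2% in Itpkb-/- libraries, without overlap. Rara had the largest share in all 6 libraries, most narrowly in Itpkb-/- library 3, at 47.5% beside 42.3% for Rarg, and in WT library 2, at 43.9% beside 37.5%. Rxra made up 31.1 ± 4.51% of the Rxra and Rxrb sum in WT and 19.9 ± 1.63% in Itpkb-/- cells, without overlap. The summed RAR level was 8.01 ± 1.82 in WT and 5.88 ± 0.755 in Itpkb-/- cells, and the summed RXR level 14.2 ± 1.67 and 13.5 ± 0.780.

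**Figure D3:**
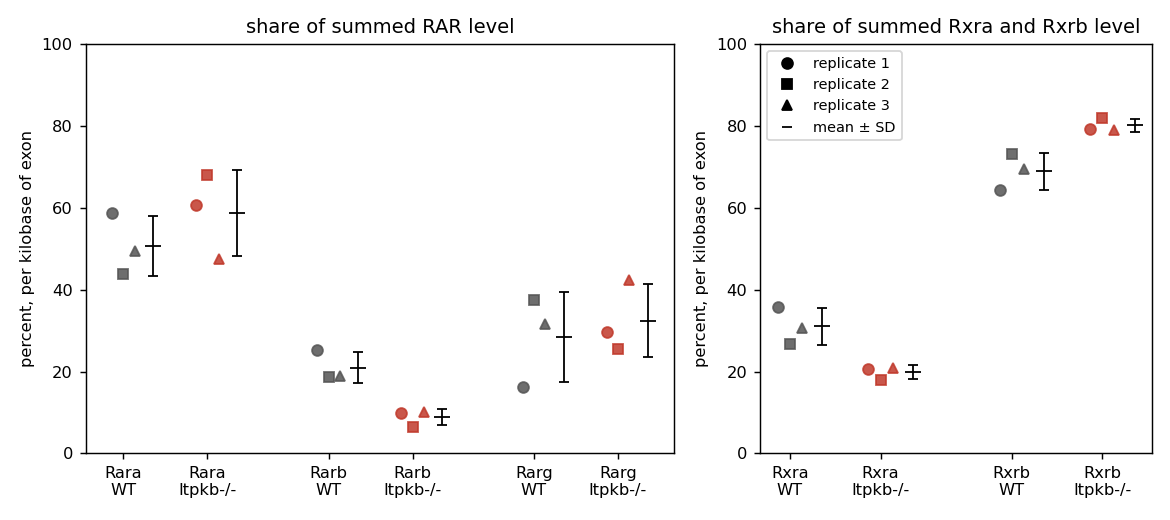
Percent of the summed RAR level (left) and of the summed Rxra and Rxrb level (right) per kilobase of exon in each library, WT in grey and Itpkb-/- in red, with the mean ± SD of 3 libraries. The Rarb and Rxra shares of the Itpkb-/- libraries lie below those of all WT libraries, while the Rara and Rarg shares overlap.

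The libraries of a genotype were not alike in these genes. WT library 1, the one with the fewest reads, had the highest WT value in 4 of the 7 genes (Cyp26b1, Rara, Rarb and Rxra). Itpkb-/- library 2, the one with the highest sum of granulocyte markers, had the lowest Itpkb-/- value in 5. These markers were not confined to it, with sums of 6160 normalized CPM in Itpkb-/- library 1 and 3549 in WT library 1. All 7 genes had a value of at least 1 in all 6 libraries, so none passed the filter through 1 genotype alone. In the fit over all 12008 genes, limma with Benjamini-Hochberg adjustment called 5.5% with an adjusted p up to 0.15, which is the limit the series design text sets for false discoveries. That fit called 2 of the 7, Cyp26b1 and Rarb, both lower, where 3.24% of all genes were called lower. The genotypes did not overlap in 3 of the 7, all lower, where 11.3% of all genes were lower without overlap. Nothing is read from these counts, since the genes were chosen with this contrast known. With the replicate block, which called 18.1% of all genes, Rxra joined and 3 were called. Without Itpkb-/- library 2 (2.22% of all genes called), WT library 1 (2.35%) or WT library 3 (0.542%), 1 was called, Cyp26b1. Without Itpkb-/- library 1 (7.08%), Itpkb-/- library 3 (5.88%) or WT library 2 (2.31%) both stayed called, and at an adjusted p up to 0.05 (1.52%) 1 was called, Cyp26b1.

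Beyond these 7, the pathway was followed in 94 listed genes, all of them in the table, of which 54 passed the filter on low values. These lists too were drawn up with earlier results of these data known. Their counts and adjusted p-values are therefore given as a description. Of the 54, 2 rose and 7 fell in Itpkb-/- cells (limma, adjusted p up to 0.15), which is 16.7% against the 5.5% of all genes, or 2.27% higher and 3.24% lower. Among the 7 that fell, 1 had passed the filter through 1 genotype alone, so its call is not independent of the filter. The median log2 difference of the 54 was -0.041, against 0.002 for all tested genes. With the replicate block 5 rose and 10 fell, where 18.1% of all genes were called. Without Itpkb-/- library 2 the count was 4, without WT library 1 or 2 it was 3, and without WT library 3 it was 0 of 52 (limma; 11 had an unadjusted p under 0.05), with 64 genes called in all.

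**Figure D4:**
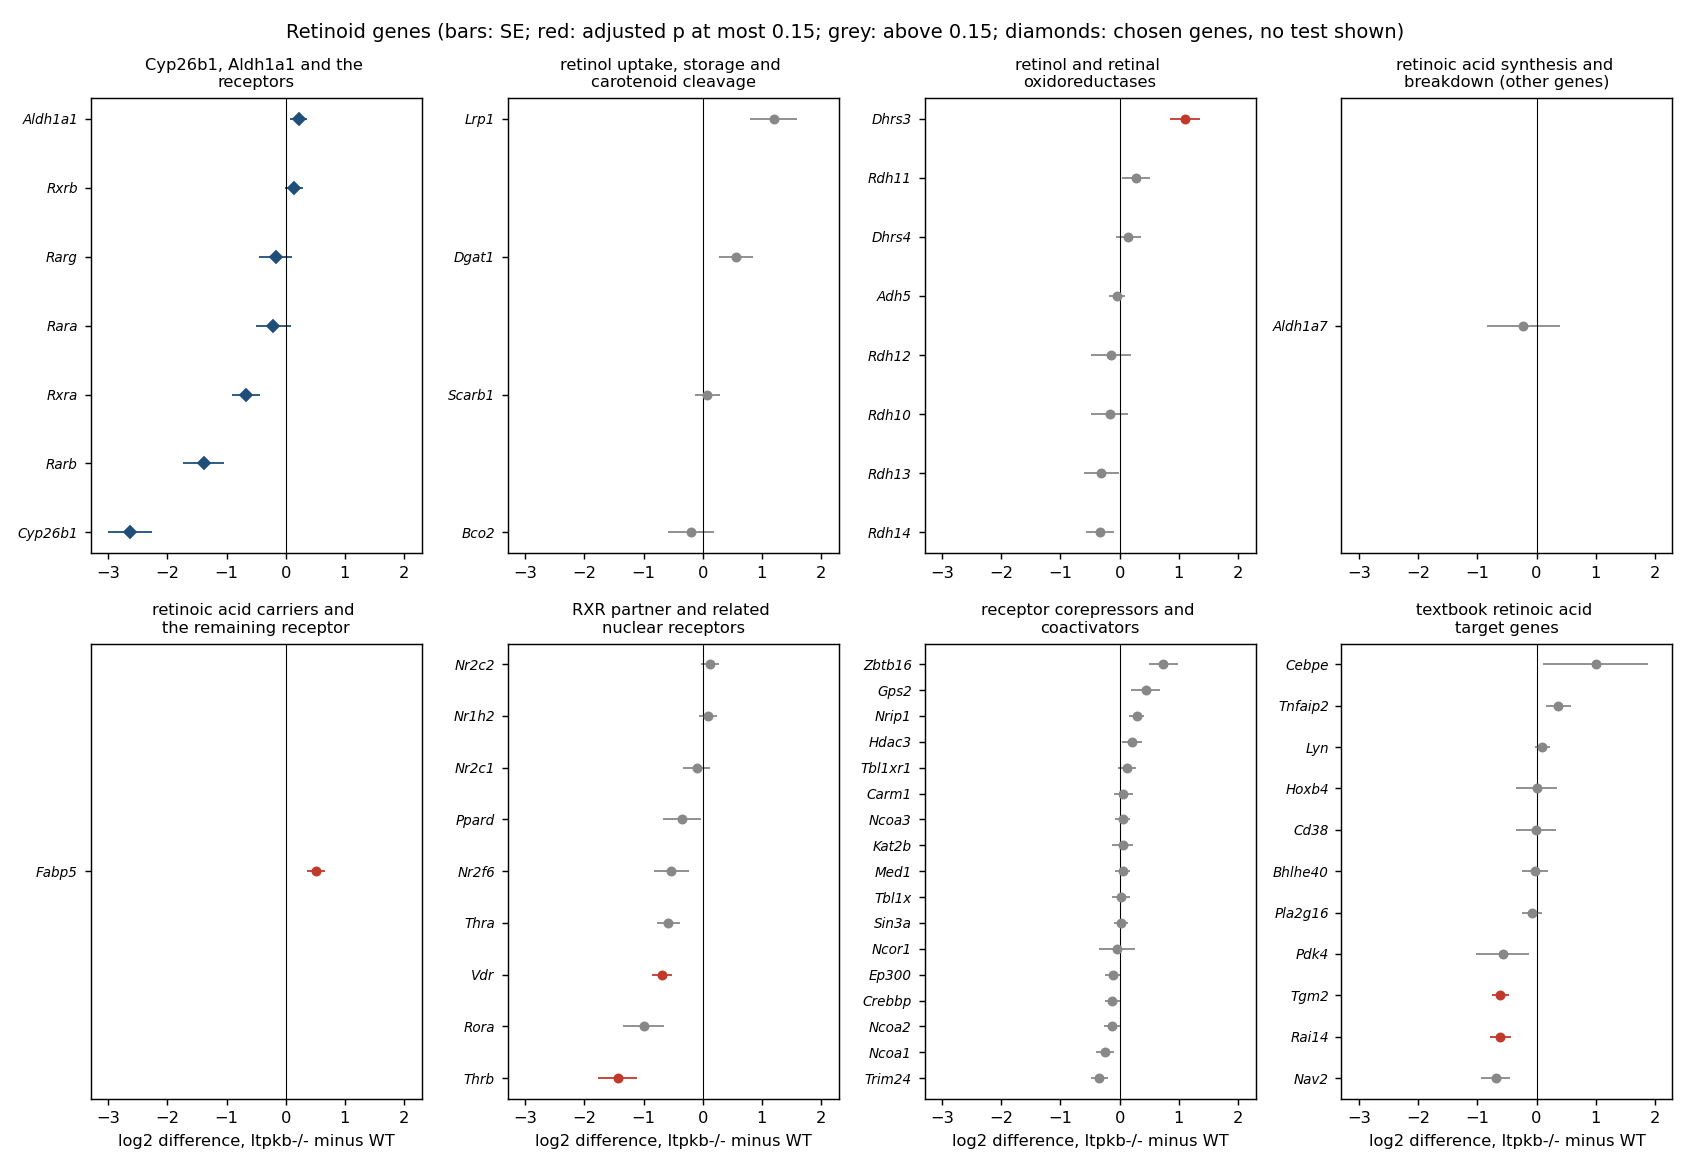
Log2 difference (Itpkb-/- minus WT, on log2(value + 1)) with its SE for Cyp26b1, Aldh1a1 and the receptors (diamonds) and for 51 of the 54 other tested genes of the pathway by role, red where the adjusted p was 0.15 or less. Dhrs3 and Fabp5 are the 2 that rose, and Thrb, Vdr, Tgm2 and Rai14 are 4 of the 7 that fell.

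Of 14 genes for retinol uptake, storage and carotenoid cleavage, 5 were tested and 1 fell. The retinol receptor gene Stra6 and the retinol esterifying enzyme gene Lrat had 4 reads and 1 read in all, both in WT library 3.

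Among 15 genes of retinol and retinal oxidoreductases, 8 were tested and 1 rose. Dhrs3, which reduces retinal back to retinol and is itself induced by retinoic acid in many cells, was at 35.3, 32.8 and 31.1 normalized CPM among Itpkb-/- libraries, against 20.1, 15.5 and 10.2 among WT libraries. No libraries overlapped, with means of 33.0 ± 2.12 and 15.3 ± 4.96 (SD, n = 3 each) and a log2 difference of 1.11 (SE 0.25; limma, adjusted p = 0.0557). The call was lost without WT library 3 alone (limma, adjusted p = 0.233), and the lowest value was 0.00521, with the replicate block. Rdh10, the main retinol dehydrogenase of the embryo, was at 5.11 to 7.77 in Itpkb-/- and 6.22 to 10.6 in WT libraries, which overlapped; it is given here by its role, outside the rule for naming genes.

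Of 4 further genes, the retinoic acid carriers Crabp1, Crabp2 and Fabp5 and the receptor Rxrg, only Fabp5 was detected, and Crabp1 and Crabp2, which deliver retinoic acid in other tissues, were at 0 throughout. Fabp5, a fatty acid carrier that can also bind retinoic acid, was at 51.4, 53.8 and 60.5 normalized CPM among Itpkb-/- libraries, against 38.8, 38.0 and 38.5 among WT libraries. It rose by a log2 difference of 0.51 (SE 0.15; limma, adjusted p = 0.138). This call was lost without Itpkb-/- library 2 or 3 or any 1 WT library (limma, adjusted p = 0.271 to 0.381) and without the filter on low values (0.158), and the lowest value over the alternatives was 0.0456, with the replicate block. Of the 8 other genes of retinoic acid synthesis and breakdown 1 was tested, Aldh1a7, which did not pass (limma, adjusted p = 0.913), and none had an unadjusted p under 0.05.

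Of 16 RXR partners and related nuclear receptors, 10 were tested, 3 fell and none rose, and their median log2 difference was -0.557. Thrb, a thyroid hormone receptor gene, was at 6.75, 3.73 and 2.88 normalized CPM among Itpkb-/- libraries, against 10.4, 12.7 and 17.1 among WT libraries. Its log2 difference was -1.44 with an SE of 0.33 (limma, adjusted p = 0.0623). The call was lost without Itpkb-/- library 2 or WT library 2 or 3 (limma, adjusted p = 0.158 to 0.291). The lowest adjusted p of all alternatives was 0.0118, by DESeq2, and the lowest by limma was 0.0172, with the replicate block. Vdr, the vitamin D receptor gene, was at 42.5, 34.8 and 44.4 in Itpkb-/- and 61.9, 59.8 and 74.5 in WT libraries. Its log2 difference was -0.68 (SE 0.17, limma, adjusted p = 0.0792). The call was lost without Itpkb-/- library 2 or any 1 WT library (limma, adjusted p = 0.161 to 0.341). The lowest adjusted p over the alternatives was 0.00940, by limma with the replicate block. With the replicate block Thra, the second thyroid hormone receptor gene, and Rora passed as well, with log2 differences of -0.58 and -1.0 (limma, blocked adjusted p = 0.0512 and 0.0703).

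All 18 corepressor and coactivator genes were tested, and 1 fell. The replicate block also called Zbtb16 (log2 difference 0.74) and Nrip1 (0.29) as higher (limma, blocked adjusted p = 0.0886 and 0.0709). The median of the 18 was 0.039.

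Of 19 textbook retinoic acid targets, 11 were tested, 2 fell and none rose. Tgm2, a transglutaminase gene that retinoic acid induces in myeloid cells, was at 161.8, 144.5 and 184.9 normalized CPM among Itpkb-/- libraries, against 262.6, 216.9 and 270.5 among WT libraries. Its log2 difference was -0.61 (SE 0.14, limma, adjusted p = 0.0637). The call was lost without Itpkb-/- library 2 or WT library 1 or 3 (limma, adjusted p = 0.182 to 0.305). The lowest adjusted p over the alternatives was 0.00143, by limma with the replicate block. Tgm2 shares 370 exonic bases with Rprd1b of the other strand in the GENCODE M21 models, 8.03% of its exon length. Rai14, retinoic acid induced 14, was at 24.6, 33.1 and 33.3 in Itpkb-/- and 47.5, 41.8 and 50.3 in WT libraries. Its log2 difference was -0.61 (SE 0.18; limma, adjusted p = 0.138), and the call was lost without any 1 of the 6 libraries (limma, adjusted p = 0.153 to 0.420) and without the filter (0.177), with 0.0387 the lowest, with the replicate block. The block also called Nav2 as lower and, of the uptake genes, Lrp1 as higher (log2 differences -0.69 and 1.2; limma, blocked adjusted p = 0.0346 and 0.0507). Dhrs3 and Rarb are known targets of retinoic acid as well and are counted elsewhere.

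Of the 5 genes whose pattern over the 6 libraries was nearest to that of Cyp26b1, out of 11376 candidates, 4 are described here: Mfap2, Tenc1, Pygm and Hid1. Nearness was the root mean square difference of log2(value + 1) after each gene was centred on its mean, and it ran from 0.314 for Mfap2 to 0.351 for Hid1, with a median of 1.42 over the candidates. Rarb was at place 48, at a distance of 0.661. Mfap2 encodes a microfibril protein, Tenc1 a tensin and Pygm the muscle glycogen phosphorylase. Mfap2 was at 0.436, 0.311 and 1.44 normalized CPM among Itpkb-/- libraries, against 9.95, 5.53 and 8.75 among WT libraries. Its Itpkb-/- values rest on 2, 2 and 11 reads, so those of libraries 1 and 2 lay under the floor of 3 reads. Pygm was at 5.45, 2.33 and 4.32 in Itpkb-/- and 28.1, 24.4 and 26.8 in WT libraries. In all 4 described genes, as in Cyp26b1, Itpkb-/- library 2 was the lowest of all, at 4.04 in Tenc1 and 4.51 in Hid1. The genes were chosen for nearness over these same libraries, so this shared low point follows in part from the choice. By Pearson correlation of the same profiles none of the 5 was among the nearest 5.

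**Figure D5:**
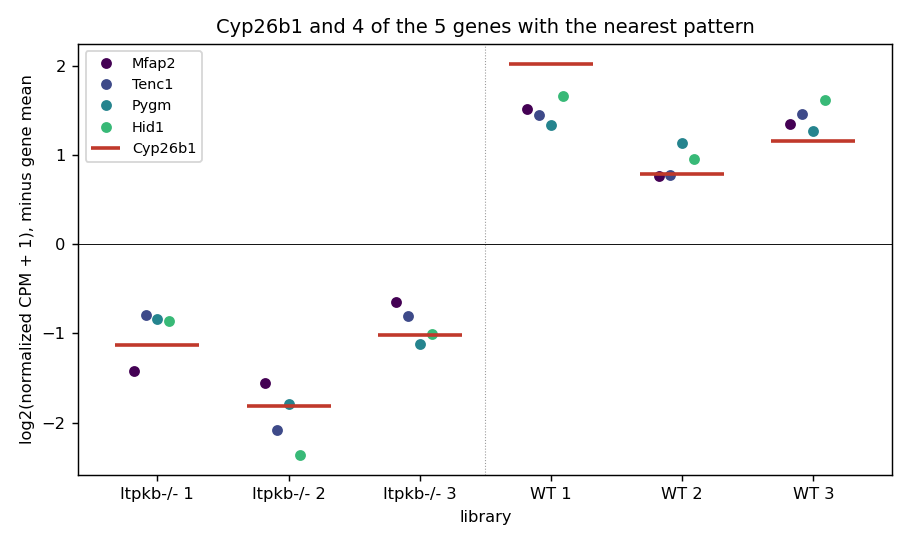
Log2(normalized CPM + 1) minus the mean of each gene in the 6 libraries for Cyp26b1 (red bars) and 4 of the 5 genes nearest to it (points). All 5 plotted genes lie below their means in the Itpkb-/- libraries and above them in the WT libraries, a likeness for which the 4 were chosen.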

How the data were processed

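RNA-seq of sorted LT-HSC was analysed from 1 deposited table of 6 libraries. Per the submitters' processing notes, the authors used CASAVA 1.8.2, cutadapt, TopHat2 2.0.8b, build mm10, Partek and edgeR, and per the labels the libraries were made with NuGEN Ovation from 1 to 5 ng of RNA. The deposited values are a signal on the scale of CPM: the authors divided gene counts by 1 factor per library. 100% of the values lay within 0.01 read of a whole number, which recovered the reads. The 7 genes and all lists were chosen with earlier results of these data known.

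The main test was limma 3.58.1 (R 4.3.3) (trended prior variance, log2(value + 1)) over genes that reached 1 in 3 libraries or more, adjusted by Benjamini-Hochberg over 12008 genes and called at 0.15. As alternatives, edgeR 4.0.16 (quasi-likelihood, TMM) on the recovered reads tested 11486 genes and called 692, and DESeq2 1.42.0 called 883. Other pseudocounts and filters, the replicate block and leaving out each library were also tried. The test was tried on simulated data. Lengths and positions are from GENCODE M21 (mm10), with a length for 94.8% of tested genes, and promoter windows from RefSeq (GRCm38.p6). The planned comparison of protein sequences was not made.

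Same-numbered libraries deviated together from their genotype means (correlations over genes 0.296, 0.268 and 0.284, against -0.0475 or lower for the others), which met the criterion for pairing, although the labels do not explain the numbers. The main fit is unpaired, and the replicate block is an alternative. Read counts of same-genotype libraries differed by 5.93 to 25.2 times sampling noise (chi-square over its degrees of freedom), so none repeated another. Named genes were the 7, each pathway gene that passed or otherwise the 2 with the smallest p in its list, and the 5 nearest patterns. Some results under this rule are not reported here. Read counts carry no molecular identifiers, so the floor of 3 reads covers counting error only.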

Additional observations from a re-analysis of the deposited data

How the results depend on the processing

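The log2 differences of all 7 genes moved by less than the spread between replicates under the alternatives that could be fitted, although Rara changed sign without WT library 1; Cyp26b1 ran from -3.15 to -2.29 and Rarb from -1.74 to -1.10. With 3 libraries a genotype, counts of calls depended on single libraries: leaving out 1 gave 64 to 839 genes in all, 0 to 10 of the other pathway genes and 1 to 2 of the 7. With the replicate block the counts were 2176 in all (1099 higher and 1077 lower, against 272 and 389 without it) and 15 of the pathway, and at an adjusted p up to 0.05 they were 182, 2 and, of the 7, 1. Among the named genes the block changed no call beyond those given with the results, and the cause of these moves was not tested.

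With the longest transcript in place of all exons, levels per kilobase in Itpkb-/- and WT cells were 73.1 and 62.2 for Aldh1a1, 0.863 and 2.92 for Rarb, 2.71 and 3.10 for Rarg and 16.3 and 14.8 for Rxrb, by construction of the shorter length. The shares became 10.9% and 25.0% for Rarb, 15.5% and 24.9% for Rxra and 84.5% and 75.1% for Rxrb. By Pearson correlation 0 of the 5 nearest genes were shared, and with AGGTCA alone 0 of the 7 genes had a match. Genes near the floor, such as the other Cyp26 genes, could not be compared at this depth.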
